A study of Mus musculus with 4 samples.

Results

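The heat shock protein and DnaJ chaperone genes were read from all probes, other than control spots, whose gene name on the array begins with Hspa, Hspb and a digit, Hspd, Hspe1, Hsph, Hsp90, Dnaja, Dnajb or Dnajc. The rule found 108 probes of 71 genes, among 39429 probes with 30175 gene names on the array. By the known site of the protein, 45 of these genes were placed in the cytosol and nucleus, 13 in the endoplasmic reticulum (ER) and 8 in mitochondria, and 5 were not assigned. RNA of whole liver was compared between 4 mice labelled conditional liver NIPP1 KO and 4 control mice, all male, untreated, of mixed strain and 2 months old. Each of 4 two-colour arrays carried RNA of 1 knockout mouse and 1 control mouse, and no mouse was used on more than 1 array. Knockout RNA was in Cy3 on replicates 1 and 2 and in Cy5 on replicates 3 and 4, so each dye orientation held different mice. All 4 arrays lay on 1 slide with 1 scan. The sources used here give neither the Cre line and deleted exons nor the genotype of the control mice at the targeted locus. In RNA of a whole organ, fewer cells of a type and less RNA per cell cannot be told apart.

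Ppp1r8 encodes NIPP1, a nuclear regulatory subunit of protein phosphatase 1. Its brighter probe gave log2 knockout over control of -0.60, -0.73, -0.74 and -0.63 on replicates 1 to 4, and a second probe gave -0.66, -0.59, -0.59 and -0.75. Both were lower in the channel labelled knockout on all 4 arrays, with mean log2 ratios of -0.68 and -0.65 and limma adjusted p = 0.0519 each. With the scanner software's processed signals the means were -1.33 and -1.22. Whether these probes lie in the deleted part was not tested. Of the 8 hepatocyte marker genes all 8 were tested, and none of their 11 probes was without a signal well above background. Over the 9 probes of 8 pancreatic acinar genes, log2 knockout over control ran between 2.89 and 5.31 on replicate 1, -3.27 and -1.55 on replicate 2, -0.78 and 0.37 on replicate 3, and -1.69 and -0.47 on replicate 4. Of 7 biliary marker probes, 3 were higher at an adjusted p under 0.1, Krt19 (mean log2 ratio 0.64), Tspan8 (0.67) and Spp1 (0.37), and 5 were higher on all 4 arrays. Of all tested probes 4.05% were higher at that threshold and 13.4% were higher on all 4 arrays. The biliary markers Sox9 (-0.19, -0.76, 0.04 and 0.09) and Cdh1 (1.09, 0.15, -0.32 and -0.45) had mixed signs. The hepatocyte marker Alb also passed 0.1, with a mean log2 ratio of 0.44. It gave -0.44, -0.24, 1.20 and 1.24, so it was lower on replicates 1 and 2 and higher on replicates 3 and 4. The standard error does not contain that difference between dye orientations, and the SD of Alb over the 4 arrays was 0.91. The median over the 11 hepatocyte probes was 0.03. The adipocyte marker Cfd gave 1.66, -1.15, -2.23 and 0.15, and the erythroid marker Alas2 gave 0.36, -2.08, -2.28 and -2.25, neither of which passed 0.1. The other tested erythroid probes did not follow Alas2. Hbb-bt gave -0.06, 0.27, -0.89 and 0.04, and Slc4a1 gave 0.04, 0.07, -0.13 and -0.08. The part of these cell types in the chaperone values was not tested.

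HSP70 proteins bind unfolded stretches of other proteins and release them in a cycle driven by ATP. J-proteins, the Dnaja, Dnajb and Dnajc families, bring clients to HSP70 and start its ATP hydrolysis, and HSP110 proteins exchange its nucleotide. HSP90 acts later on proteins such as kinases and steroid receptors, with the help of co-chaperones. Small heat shock proteins hold unfolding proteins without using ATP, and HSP60 with its lid HSP10 folds proteins inside mitochondria. The transcription factor HSF1 raises many cytosolic chaperones after heat or other damage to proteins by binding heat shock elements, while the unfolded protein response raises those of the ER. In liver these systems serve a cell with a large output of secreted proteins.

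The promoters of 5 members are shown as examples of the elements searched for. Hspb1 and Dnaja4 differed between the genotypes, while Hsph1, Hspe1 and Hspa5 had values that varied from array to array. They were chosen after their values were seen. Each window runs from 250 bases before to 50 bases after the start of the gene, from RefSeq on GRCm38.p6. Capitals mark a match to a heat shock element of 2 units (GAANNTTC) in Hspb1 and Dnaja4, of 3 units (GAANNTTCNNGAA or its reverse complement) in Hsph1 and Hspe1, and to the ER stress response element (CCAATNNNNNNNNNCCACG) in Hspa5. The windows lie at chr5:135887669-135887968 (plus strand) for Hspb1, chr9:54699309-54699608 (plus strand) for Dnaja4, chr5:149636266-149636565 (minus strand) for Hsph1, chr1:55087898-55088197 (plus strand) for Hspe1 and chr2:34771840-34772139 (plus strand) for Hspa5.
Hspb1: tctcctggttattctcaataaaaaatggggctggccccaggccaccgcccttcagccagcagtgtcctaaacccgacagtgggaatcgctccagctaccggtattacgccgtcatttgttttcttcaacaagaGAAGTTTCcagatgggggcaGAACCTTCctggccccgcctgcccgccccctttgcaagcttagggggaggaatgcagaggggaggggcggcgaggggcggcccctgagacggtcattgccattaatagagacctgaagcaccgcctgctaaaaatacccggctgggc
Dnaja4: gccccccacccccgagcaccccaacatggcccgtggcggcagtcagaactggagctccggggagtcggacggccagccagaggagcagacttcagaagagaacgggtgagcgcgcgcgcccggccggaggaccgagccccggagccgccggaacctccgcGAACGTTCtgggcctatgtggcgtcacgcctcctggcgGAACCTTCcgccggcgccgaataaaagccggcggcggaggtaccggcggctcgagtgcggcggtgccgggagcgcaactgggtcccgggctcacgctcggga
Hsph1: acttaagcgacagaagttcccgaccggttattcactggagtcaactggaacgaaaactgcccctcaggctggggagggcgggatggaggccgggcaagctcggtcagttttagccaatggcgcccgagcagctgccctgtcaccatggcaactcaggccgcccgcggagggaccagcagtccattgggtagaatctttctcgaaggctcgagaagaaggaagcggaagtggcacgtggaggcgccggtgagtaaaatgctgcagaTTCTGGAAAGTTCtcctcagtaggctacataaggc
Hspe1: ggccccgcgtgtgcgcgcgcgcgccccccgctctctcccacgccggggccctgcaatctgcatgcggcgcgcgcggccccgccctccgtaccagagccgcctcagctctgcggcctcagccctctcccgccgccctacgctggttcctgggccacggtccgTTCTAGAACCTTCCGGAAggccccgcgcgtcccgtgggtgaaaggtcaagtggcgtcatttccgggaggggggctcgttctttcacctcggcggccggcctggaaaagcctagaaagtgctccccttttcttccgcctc
Hspa5: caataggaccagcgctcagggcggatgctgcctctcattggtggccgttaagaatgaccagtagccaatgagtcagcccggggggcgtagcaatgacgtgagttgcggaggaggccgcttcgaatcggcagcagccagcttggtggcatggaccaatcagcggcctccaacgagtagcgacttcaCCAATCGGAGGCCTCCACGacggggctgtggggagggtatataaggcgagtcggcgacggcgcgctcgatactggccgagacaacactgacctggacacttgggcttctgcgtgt

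Both strands were searched in 32851 promoters of the same length, 74 of which belong to 57 member genes. Dnaja4 and Hsph1 each have 2 listed promoters, and the first that holds the element is printed. The 2 matches begin at positions 134 and 154 of the Hspb1 window and at 161 and 199 of the Dnaja4 window, counted from its 5′ end. In Hspe1 the capitals join 2 overlapping matches that begin at 162 and 167. The 3-unit element contains the 2-unit element. The 2-unit element was found in 7.86% of all promoters and in 15 of the 74 member promoters. These belong to 13 member genes, among them Dnaja1, Hspa1a, Hspb6 and Hspb8. The 3-unit element was found in 0.603% of all promoters and in 6 of the 74 member promoters, those of Dnajb6, Hspd1, Hspe1 and Hsph1. The ER stress response element was found in 0.119% of all promoters and in 3 of the 74 member promoters, those of Dnajc3, Hsp90b1 and Hspa5. These matches are descriptions of the letters and not of binding.

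Of the chaperone transcripts, 2 cytosolic members, Hspb1 and Dnaja4, were lower in knockout than in control liver, and no other member was called at an adjusted p of 0.05. Of the 108 probes, 87 probes of 59 genes were bright enough to test, and all 87 were well above background in all 8 mice. With the limma fit and Benjamini-Hochberg adjustment over all 20840 tested probes, at 0.05, no member probe was higher in knockout liver and 2 were lower, Hspb1 and Dnaja4. Over all tested probes 0.13% were higher and 0.0576% lower at that threshold. At an adjusted p under 0.1, 2 member probes were higher (2.3%), against 4.05% of all tested probes, and 5 were lower (5.75%), against 2.68%. At an unadjusted p under 0.05, 8 member probes were higher and 16 lower, against 12.9% and 10.3% of all tested probes. No member was called at 0.05 when any 1 of the 4 arrays was left out, and 0 to 2 member probes were called at 0.1.

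**Figure D1:**
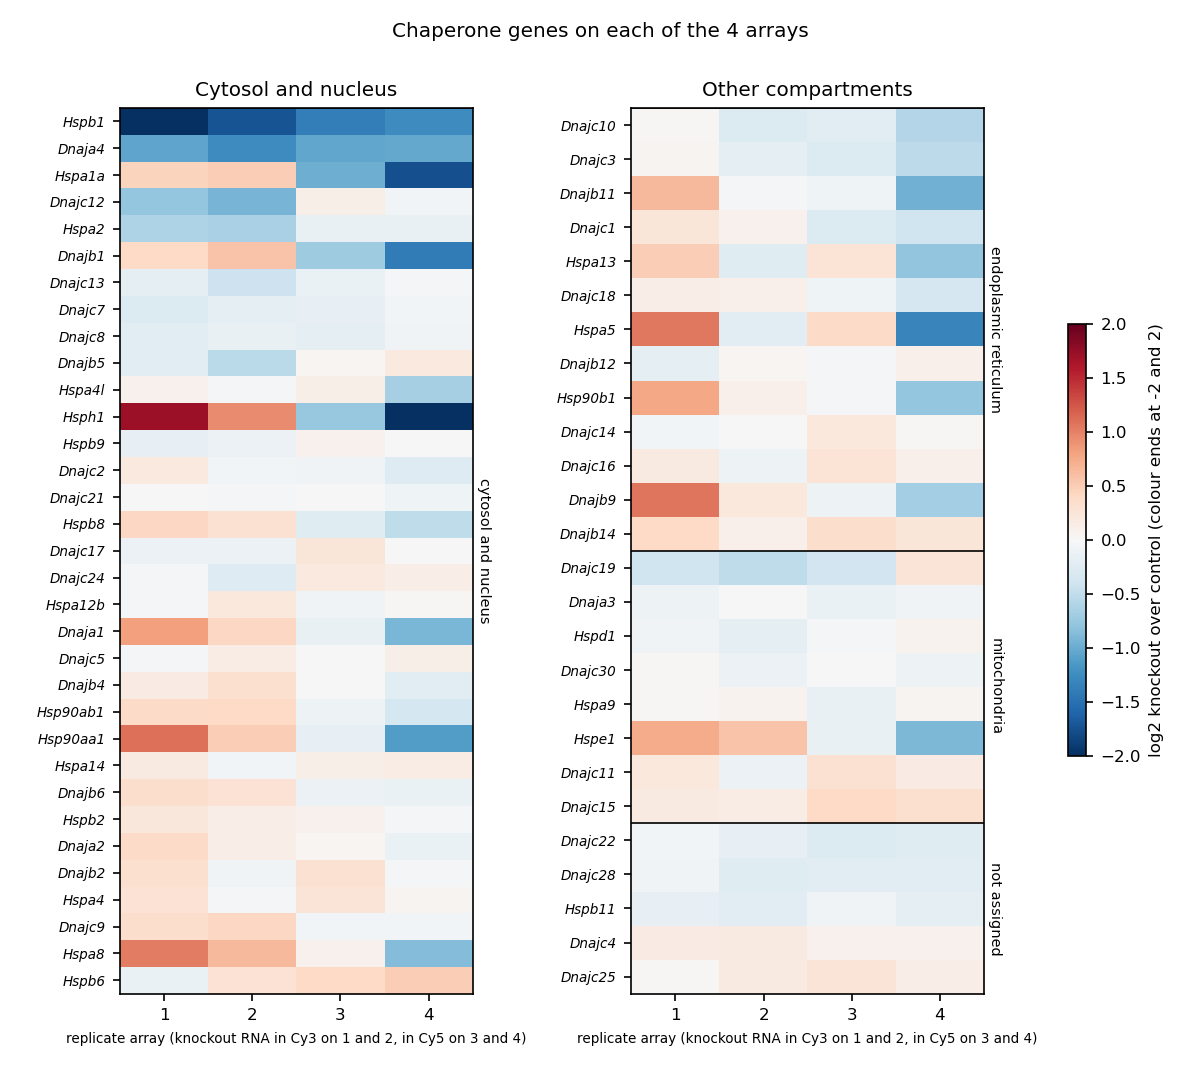
Log2 knockout over control of the brightest tested probe of each of the 59 tested genes (down the page, by compartment and then by mean) on replicate arrays 1 to 4 (across). Blue is lower and red higher in knockout liver. Hspb1 and Dnaja4 are blue on all 4 arrays, while Hsph1, Hspa8, Hsp90aa1 and Hspe1 are red on replicates 1 and 2 and blue on replicate 4.

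The direction of the members was mixed. The median log2 knockout over control over the 87 tested member probes was -0.0011, with 42 above 0 and 45 below, beside a median of -0.00007 over all tested probes. It was 0.01 over the 50 probes of the cytosol and nucleus, -0.01 over the 19 ER probes, 0.03 over the 12 mitochondrial probes and -0.17 over the 6 probes not assigned. A total of 8 member probes were higher on all 4 arrays (9.2%, against 13.4% of all tested probes) and 14 were lower on all 4 (16.1%, against 11.1%). With median centring in place of loess, 1 was higher and 4 were lower on all 4. The share of all tested probes was not counted with median centring. A drop particular to the members can therefore not be told from a general one. All 4 knockout levels lay below all 4 control levels for 10 member probes, 11.5% of them, against 5.21% of all tested probes. They lay above for 6, 6.9% of them, against 7.1%. Probes of 1 gene count separately in these numbers. All 3 tested Dnajc8 probes, which start within 383 bases, are among the 10 and among the 14. The dim Dnajc5 probes described below are among the 6.

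**Figure D2:**
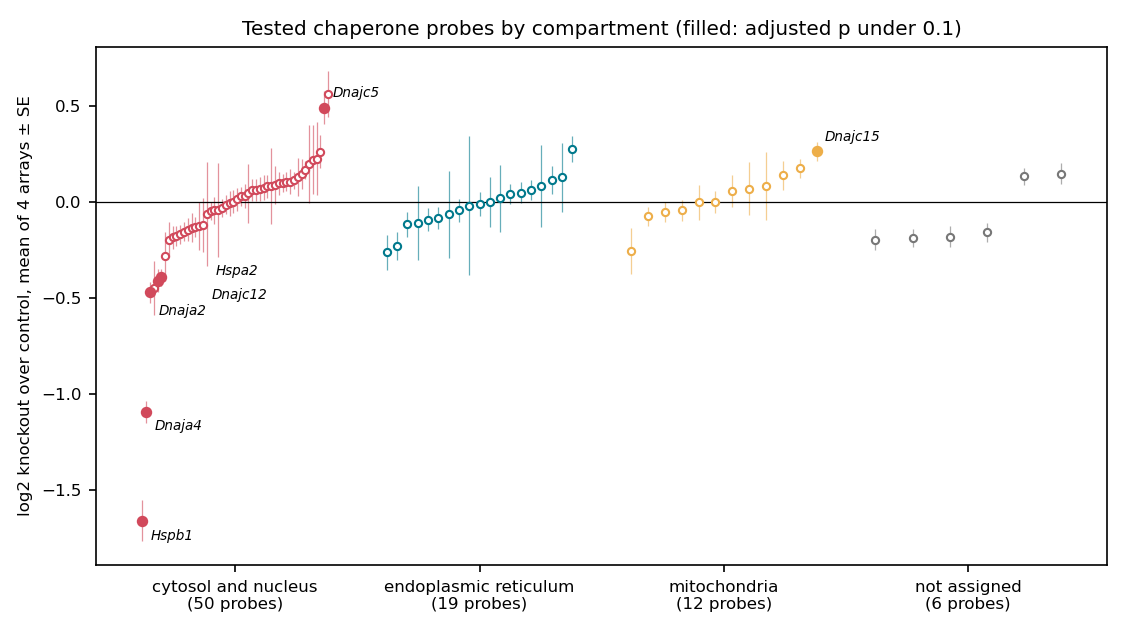
Mean log2 knockout over control of each of the 87 tested member probes, sorted within its compartment, with the standard error of the fit as a bar. The bar does not contain a difference between dye orientations. Filled points have an adjusted p under 0.1; Hspb1 at -1.66 and Dnaja4 at -1.09 lie far below the other probes, which run between -0.47 and 0.56.

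Hspb1 encodes the small heat shock protein known as HSP25 in mouse, which holds unfolding proteins and binds the actin cytoskeleton. Its probe, on mm9 at chr5:136365366-136365425, gave log2 ratios of -2.28, -1.73, -1.39 and -1.25 on replicates 1 to 4. The level, as log2 intensity, was 9.79, 9.74, 9.45 and 9.65 in the 4 knockout mice and 12.07, 11.46, 10.84 and 10.91 in the 4 control mice. The knockout mice lay close together, the control mice spread further, and the groups did not overlap. Hspb1 was 3.16-fold lower in knockout liver, a mean log2 ratio of -1.66 ± 0.11 (SE, n = 4) with limma adjusted p = 0.0485. The other tested small heat shock proteins, Hspb2, Hspb6, Hspb8 and Hspb9, did not pass an adjusted p of 0.1. Hspb6, which is best known from muscle, gave -0.14, 0.29, 0.40 and 0.50. Hspb8, the partner of Bag3, gave 0.42, 0.30, -0.24 and -0.51.

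Dnaja4, a class A J-protein, was the other member that was lower at 0.05. Its tested probe, at chr9:54564061-54564120, gave log2 ratios of -1.05, -1.25, -1.05 and -1.02. The level was 7.97, 7.84, 7.91 and 8.19 in knockout mice and 9.02, 9.10, 8.96 and 9.22 in control mice. Both groups were tight and did not overlap. Dnaja4 was 2.13-fold lower in knockout liver, with a mean log2 ratio of -1.09 ± 0.06 (SE, n = 4) and limma adjusted p = 0.0485. The SD over the 4 arrays was 0.11, against 0.46 for Hspb1. The standard errors of both genes do not contain a difference between dye orientations. A second Dnaja4 probe was not well above background in any mouse and was not tested. With the scanner software's processed signals the mean log2 ratio was -1.78 for Hspb1 (adjusted p = 0.060) and -1.41 for Dnaja4 (adjusted p = 0.058).

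**Figure D3:**
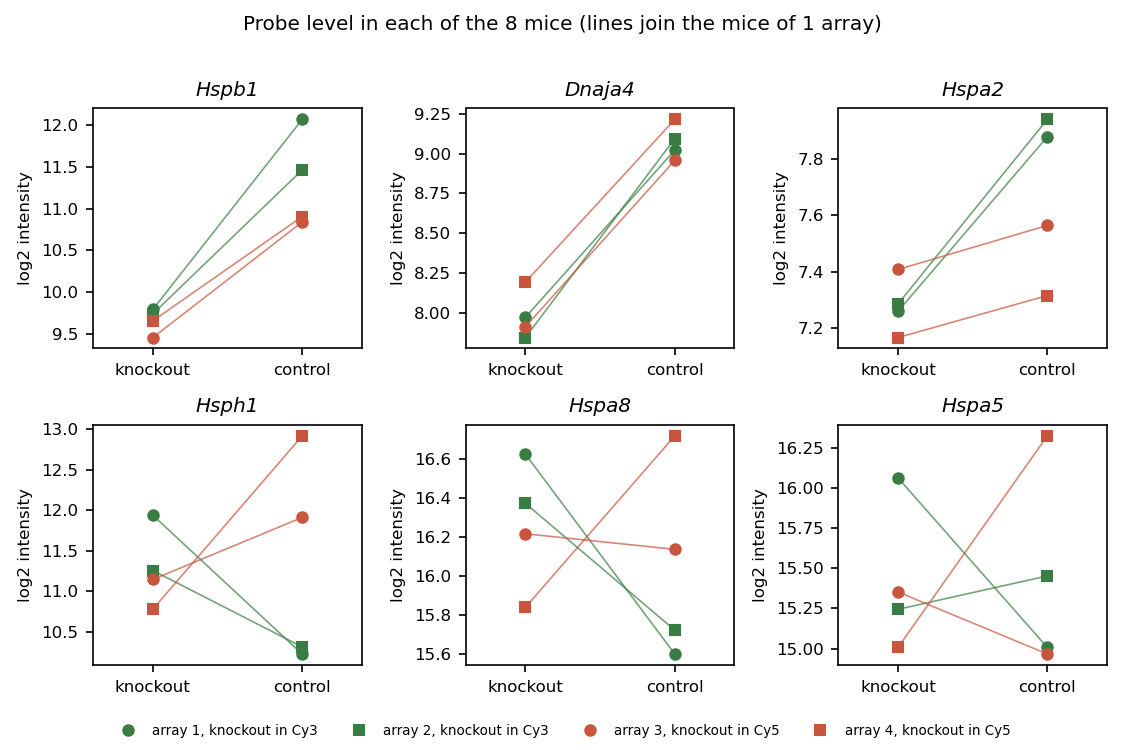
Level (log2 intensity) of 6 probes in each of the 8 mice, knockout on the left and control on the right of each panel; a line joins the 2 mice of an array, in green where knockout RNA was in Cy3 and in red where it was in Cy5. All lines rise toward control for Hspb1, Dnaja4 and Hspa2, while for Hsph1 and Hspa8 green lines fall and the line of replicate 4 rises.

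Other members passed only an adjusted p of 0.1. Hspa2, an HSP70 best known from spermatogenesis, gave -0.62, -0.65, -0.16 and -0.15. Its level was 7.26, 7.29, 7.41 and 7.17 in knockout mice and 7.88, 7.94, 7.56 and 7.32 in control mice. It was lower in knockout liver on each array, though the groups overlapped, with a mean log2 ratio of -0.39 ± 0.05 (SE, n = 4) and limma adjusted p = 0.0555. Its log2 ratio was -0.68 with the processed signals. Dnajc12, a J-protein that binds phenylalanine hydroxylase and related enzymes, gave -0.77, -0.93, 0.12 and -0.05. Its lower value in knockout liver lay in replicates 1 and 2, with a mean log2 ratio of -0.41 ± 0.06 (SE, n = 4) and limma adjusted p = 0.0653. These standard errors do not contain a difference between dye orientations. The SD over the 4 arrays was 0.28 for Hspa2 and 0.52 for Dnajc12.

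Dnaja2, a class A partner of cytosolic HSP70, and Dnajc5, the cysteine string protein of secretory vesicles, gave different values at different probes. The Dnaja2 probe at chr8:88061548-88061607 gave -0.81, -0.68, -0.27 and -0.13, a mean log2 ratio of -0.47 ± 0.06 (SE, n = 4; limma adjusted p = 0.0558). Its SD over the 4 arrays was 0.33, and the standard error does not contain a difference between dye orientations. The Dnaja2 probe at chr8:88062657-88062716, 1109 bases away and brighter, gave 0.38, 0.14, 0.03 and -0.13, with an adjusted p of 0.407. Only the dimmer Dnaja2 probe was lower on all 4 arrays. For Dnajc5, the probe at chr2:181284236-181284295 gave 0.30, 0.10, 0.97 and 0.59, a mean log2 ratio of 0.49 ± 0.09 (SE, n = 4; limma adjusted p = 0.0817). Its SD over the 4 arrays was 0.38, and its standard error has the same limit. The Dnajc5 probe at chr2:181283486-181283545 gave 0.65, 0.31, 0.93 and 0.36 (adjusted p = 0.105). For both of these dim probes all 4 knockout mice lay above all 4 control mice. The brightest Dnajc5 probe, at chr2:181286885-181286944, gave -0.03, 0.14, 0.01 and 0.12, with overlapping groups and an adjusted p of 0.564. Its mean level was 14.79 in knockout and 14.73 in control mice, against 9.42 and 8.93 at the probe at chr2:181284236-181284295. Whether the brightest probe reads Dnajc5 RNA alone was not tested. Of 21 genes with several tested probes, 10 had probes whose means differed in sign and 6 had probes more than 0.3 apart on the log2 scale. No transcript annotation of mm9 was used here, so the transcripts that each probe reads were not told apart.

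A total of 25 member probes of 19 genes had log2 ratios above 0 on replicates 1 and 2 and below 0 on replicates 3 and 4, that is, more signal in Cy3 than in Cy5 on every array (28.7%, against 10.1% of all tested probes). The opposite order was found for 5 (5.75%, against 13.6%). The first order was found for 15 of 50 probes of the cytosol and nucleus (30%), 6 of 19 ER probes (31.6%) and 4 of 12 mitochondrial probes (33.3%). Dye orientation and the mice of each array cannot be told apart in this design. The 25 probes included the HSP90 genes Hsp90aa1, Hsp90ab1 and Hsp90b1, and also Hspa8, Hspa1a, Hsph1, Dnajb1, Dnaja1, Hspe1, Hspb8 and Dnajb4.

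Hsph1, an HSP110 that exchanges the nucleotide of HSP70, had the widest swing of the members. Its brighter probe gave 1.71, 0.94, -0.76 and -2.14, and its other probe 1.55, 0.88, -0.68 and -1.93. The level at the brighter probe was 11.94, 11.26, 11.15 and 10.78 in knockout mice and 10.23, 10.32, 11.91 and 12.92 in control mice. The control mice of replicates 3 and 4 were the highest and those of replicates 1 and 2 the lowest among the control mice. The mean log2 ratio was -0.06, with an SD over arrays of 1.73 that stood at percentile 99.7 of all tested probes (limma adjusted p = 0.911). Hspa8, the constitutive HSP70 known as HSC70, had this order at 2 of 3 probes. Its brightest probe gave 1.02, 0.65, 0.08 and -0.87, and another gave 1.57, 0.95, -0.37 and -1.36. The adjusted p of the 3 Hspa8 probes was between 0.522 and 0.616.

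Hspa1a, a stress-inducible HSP70, gave 0.45, 0.49, -0.98 and -1.76. Its level was 7.04, 6.96, 6.87 and 7.26 in knockout mice and 6.58, 6.47, 7.85 and 9.02 in control mice. The knockout mice were alike, and the control mice of replicates 3 and 4 lay above all other mice. The mean log2 ratio was -0.45 ± 0.14 (SE, n = 4), with limma adjusted p = 0.169. That standard error does not contain the difference between dye orientations, and the SD of Hspa1a over the 4 arrays was 1.11. Hspa1b, a near-identical copy, has no probe under that name, so the Hspa1a signal may hold both. Dnajb1, the J-protein that most often serves inducible HSP70, gave 0.40, 0.57, -0.71 and -1.39. Its level was 12.39, 12.45, 12.43 and 12.38 in knockout mice and 11.99, 11.88, 13.14 and 13.78 in control mice. The SD of the Dnajb1 level was 0.03 among knockout mice and 0.92 among control mice. The knockout mice were nearly level, and the control mice of replicates 3 and 4 lay above all other mice.

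**Figure D4:**
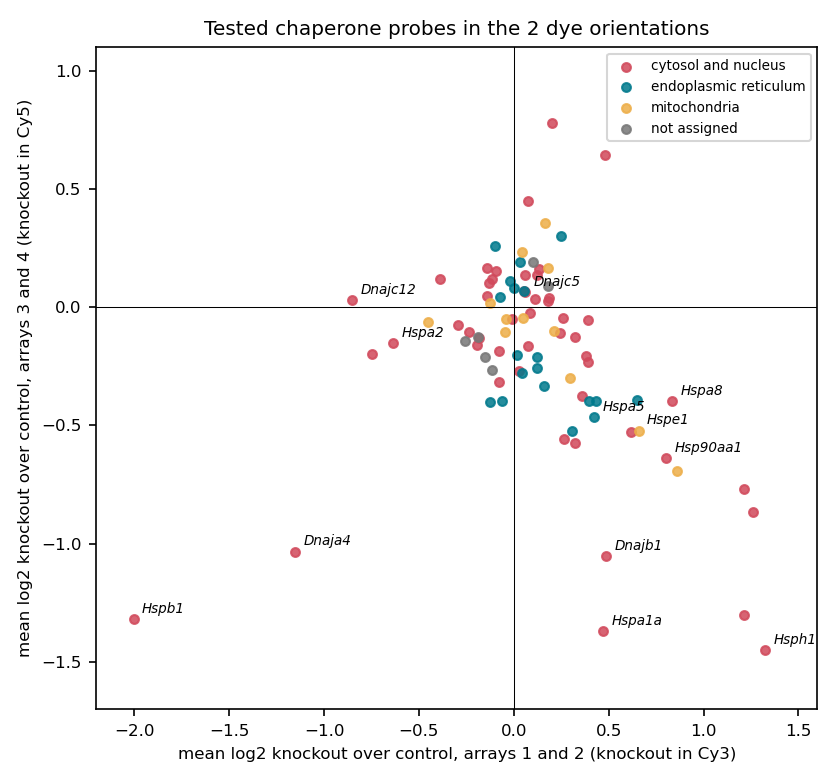
Mean log2 knockout over control of each of the 87 tested member probes on the arrays with knockout RNA in Cy3 (replicates 1 and 2, horizontal axis) and in Cy5 (replicates 3 and 4, vertical axis), coloured by compartment; names stand beside the brightest probe of a gene. Hspb1 and Dnaja4 lie in the lower left part, low in both orientations, and Hsph1, Hspa8, Hspa1a, Dnajb1 and Hsp90aa1 lie in the lower right part, high in the first and low in the second.

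Among the 25 probes, the SD of the level was larger among control mice than among knockout mice for 20 (80%). The same held for 61.9% of all 2110 tested probes that were higher in the Cy3 channel on every array. It also held for 71.3% of the 87 tested member probes and 54.1% of all tested probes, so it was not particular to the 25. The median SD over the 25 probes was 0.20 among knockout mice and 0.41 among control mice. Levels were set across arrays by normalization of the mean intensity, so they rest on that step, while the ratios within arrays do not.

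Hsp90aa1, the inducible HSP90 of the cytosol, gave 1.11, 0.50, -0.16 and -1.12, and Hsp90ab1, the constitutive form, 0.39, 0.39, -0.11 and -0.36. Both had the same order, with a wider swing in Hsp90aa1. Dnaja1, a class A J-protein, gave 0.82, 0.41, -0.15 and -0.91 at its brighter probe. Dnajb4, a class B J-protein of the cytosol, gave 0.16, 0.32, -0.01 and -0.21. Of Hspa4, another HSP110, 1 probe of 3 had the order, with 0.36, 0.17, -0.49 and -0.62. The brightest Hspa4 probe gave 0.28, -0.02, 0.26 and 0.06. None of these genes passed an adjusted p of 0.1.

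Partners of the HSP70 and HSP90 cycles outside the member list gave 1 call at an adjusted p of 0.1. Of all tested probes 4.05% were higher and 2.68% lower at that threshold. Of 16 tested probes of 13 genes around HSF1, none passed an adjusted p of 0.1. Hsf1 itself gave 0.01, 0.09, -0.20 and -0.01. Hsf2, a second heat shock factor, gave -0.21, -0.11, -0.20 and -0.16 (adjusted p = 0.150), and Hsbp1, a small protein that binds HSF1, gave 0.22, 0.11, 0.26 and 0.10 (adjusted p = 0.180). Of 19 tested probes of HSP90 co-chaperones, 1 was lower at 0.1, a probe of Ptges3 (p23) with -0.28, -0.30, -0.31 and -0.54 (adjusted p = 0.076). The other 3 Ptges3 probes had adjusted p between 0.626 and 0.972. Of the 19 probes, 8 were higher in the Cy3 channel on all 4 arrays, against 10.1% of all tested probes. Ppid, a cyclophilin that binds HSP90, gave 0.80, 0.22, 0.34 and 0.04 at 1 of 4 probes (adjusted p = 0.195). Of 15 tested probes of the cytosolic chaperonin and prefoldin, none passed 0.1 and 9 were higher in Cy3 on all 4 arrays, against the same 10.1%. Cct7, a chaperonin subunit, gave 0.28, 0.07, -0.29 and -0.47, and Vbp1, a prefoldin subunit, gave 0.10, 0.12, 0.34 and 0.32 at 1 of 2 probes (adjusted p = 0.102).

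In the ER none of the 19 tested member probes passed an adjusted p of 0.1. Of all tested probes only 4.05% were higher and 2.68% lower at that threshold, so few calls could come from 19 probes. The median of the 19 lay furthest from 0 on replicates 1 and 4. The median over the 19 probes was 0.13, 0.02, -0.03 and -0.40 on replicates 1 to 4. Hspa5, the ER HSP70 called BiP, gave 1.06, -0.21, 0.39 and -1.32. Its level was 16.06, 15.24, 15.35 and 15.01 in knockout mice and 15.01, 15.45, 14.97 and 16.32 in control mice. The knockout mouse of replicate 1 and the control mouse of replicate 4 were high, and the groups overlapped (mean log2 ratio -0.02 ± 0.36, SE, n = 4; limma adjusted p = 0.980). Hsp90b1, the ER HSP90 called GRP94, gave 0.77, 0.10, -0.03 and -0.77. Dnajb9, which holds the stress sensor IRE1 inactive, gave 1.08, 0.22, -0.11 and -0.68 at its brighter probe. The Dnajb11 probe at chr16:22872067-22872126 gave 0.64, -0.03, -0.09 and -0.96, and the other Dnajb11 probe -0.69, 0.49, 0.42 and 0.10. Dnajb11 is a J-protein of the ER lumen that works with BiP.

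Dnajc3, an inhibitor of the kinase PERK, gave 0.06, -0.19, -0.28 and -0.52 (adjusted p = 0.177). Dnajc10, an ER disulfide reductase, gave 0.02, -0.27, -0.21 and -0.59 at its brighter probe (adjusted p = 0.199). Dnajb14, a J-protein of the ER membrane, gave 0.39, 0.10, 0.35 and 0.25 at its brighter probe, the only ER probe that was higher on all 4 arrays (adjusted p = 0.127). The other 21 tested probes of ER folding and stress genes, of 19 genes, also gave no call at 0.1. Of all tested probes 4.05% were higher and 2.68% lower at 0.1. Ddit3, the stress factor CHOP, gave 0.72, 0.65, 0.07 and -0.27 (adjusted p = 0.128). Pdia6, a disulfide isomerase, gave 0.08, -0.25, -0.50 and -0.53 at 1 of 2 probes (adjusted p = 0.118). The pancreatic acinar transcripts were at their highest in the knockout channel on replicate 1, where Hspa5 and Dnajb9 were also highest, and were lower in the knockout channel on replicate 4, where these were lowest. They were lowest on replicate 2, where Hspa5 was -0.21. Their part in the ER values was not tested.

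Among the 12 tested mitochondrial probes, 1 was higher at an adjusted p of 0.1 and none lower, against 4.05% and 2.68% of all tested probes. Hspa9, the mitochondrial HSP70, had levels of 13.76 ± 0.07 in knockout mice and 13.76 ± 0.05 in control mice (SD, n = 4 each). Hspd1, the HSP60, had 14.66 ± 0.08 in knockout mice and 14.71 ± 0.07 in control mice (SD, n = 4 each). Hspe1, the HSP10 that caps it, gave 0.74, 0.57, -0.15 and -0.90 at its brightest probe, and its other 2 probes had the same order. Hspd1 gave -0.07, -0.18, -0.03 and 0.07 and did not have that order. Both genes carry the 3-unit element described above. Dnaja3, a class A J-protein of mitochondria, gave -0.11, 0.01, -0.14 and -0.07.

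Dnajc15, a J-protein of the inner mitochondrial membrane that lowers the activity of respiratory complex I, was higher at an adjusted p of 0.1. It gave 0.18, 0.15, 0.40 and 0.32. Its level was 13.42, 13.44, 13.51 and 13.44 in knockout mice and 13.23, 13.29, 13.11 and 13.12 in control mice. The groups did not overlap, and the mean log2 ratio was 0.26 ± 0.05 (SE, n = 4; limma adjusted p = 0.0851). That standard error does not contain a difference between dye orientations. Dnajc19, a J-protein of the protein import motor, gave -0.41, -0.50, -0.38 and 0.26 at its brighter probe and 0.14, 0.22, 0.20 and 0.12 at the other. Among 16 tested probes of 12 mitochondrial partner and stress genes, both probes of the protease Htra2 were lower at 0.1. They gave -0.57, -0.47, -0.30 and -0.39 (mean -0.44) and -0.45, -0.47, -0.31 and -0.39 (mean -0.41), each with limma adjusted p = 0.056. Of all tested probes 2.68% were lower at 0.1. Hscb, a J-protein of iron-sulfur cluster assembly, gave -0.53, -0.23, -0.38 and -0.22 (adjusted p = 0.104).

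Other members had small log2 ratios and did not pass 0.1. Several had 1 sign on all 4 arrays, while of all tested probes 13.4% were higher and 11.1% lower on all 4. Dnajc22 gave -0.06, -0.17, -0.28 and -0.25 (adjusted p = 0.130), and Dnajc28 gave -0.06, -0.24, -0.21 and -0.22 (adjusted p = 0.159). Hspb11, which despite its name is a protein of intraflagellar transport, gave -0.16, -0.23, -0.07 and -0.18 (adjusted p = 0.170). Dnajc13, which acts on endosomes, gave -0.18, -0.41, -0.13 and -0.02 (adjusted p = 0.187). Dnajc4 gave 0.17, 0.18, 0.08 and 0.09 (adjusted p = 0.191). The 2 probes of Dnajc25 had opposite signs, with 0.03, 0.18, 0.25 and 0.13 at one and -0.34, -0.17, -0.15 and -0.13 at the other. Dnajc8, named after its values were seen, was below 0 on all 4 arrays at all 3 probes, with means of -0.13, -0.16 and -0.18 and adjusted p between 0.158 and 0.233.

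A total of 21 member probes were not tested because no genotype had them well above background in at least 3 mice. They left 12 genes without a tested probe, Dnajb3, Dnajb7, Dnajb8, Dnajb13, Dnajc5b, Dnajc5g, Dnajc6, Dnajc27, Hspa1l, Hspa12a, Hspb3 and Hspb7. No level or fold is given for these.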

How the data were processed

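Per the labels' protocols, liver RNA was amplified and labelled with 1 of the dyes Cy3 and Cy5. The deposited intensity of each spot and of its local background was written by Agilent Feature Extraction 10.7.3.1, per the file headers. The authors also deposited log2 ratios, and all 43020 values of each array lay within 1e-04 of log2 knockout over control from the software's processed signals. Median signals of a spot were 60.6 to 62.4 in Cy3 and 125 to 126 in Cy5. The share of spots well above background was 52.7% to 56.3%, and no spot was saturated. The number of arrays limits the precision.

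From the intensities, background was corrected by normexp with an offset of 50. Its parameters were fitted without marked spots and spots over 20 units below background, because the fit on all spots failed on replicate 1 (background mean -273 in Cy3). Loess, in which control spots had weight 0, normalized the ratios of each array. Control and outlier spots were then dropped, and repeated spots were averaged per probe. Tested probes were well above background in 3 or more mice of a genotype. The 4 array ratios were fitted in limma 3.58.1 (R 4.3.3) with a dye intercept, two-sided p-values and Benjamini-Hochberg adjustment over 20840 probes. The intercept absorbs a difference between dye orientations, so the standard errors do not contain it. Levels of single mice were set across arrays by A-quantile normalization. Of these steps, the limma fit was tested on simulated log2 ratios. Statmod 1.5.0, data.table version 1.17.8, pandas 2.3.3, numpy 2.4.6 and matplotlib 3.10.9 were also used.

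Probe positions are on mm9, per the file headers and columns. Of the 108 member probes, 98 matched a RefSeq accession, which changed no name. The members, compartments, other gene lists and tests were chosen with earlier results of these data known. The genes named are Ppp1r8, members past an adjusted p of 0.1, up to 4 per direction and compartment with the same sign on all 4 arrays, a fixed set of well-known chaperones, and of each other list Hsf1 or the 2 genes of lowest p. Alternatives were other background corrections and centring, no dye intercept, other filters, 1 probe per gene, other variance moderation, a separate-channel fit and leaving out each array.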

Additional observations from a re-analysis of the deposited data

Results flagged for a closer look

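Within a set of 4 arrays, 1 array of 4 probes stood further from the others than the 95% critical value of Dixon's test allows. Dnaja4 at chromosome 9, 54564061, gave -1.25 on replicate 2, against -1.05, -1.05 and -1.02 on replicates 1, 3 and 4. Dnajc19 at chromosome 3, 33956895, gave 0.26 on replicate 4, against -0.41, -0.50 and -0.38 on replicates 1 to 3. Dnajc25 at chromosome 4, 59038364, gave -0.34 on replicate 1, against -0.17, -0.15 and -0.13 on the others. Ptges3 at chromosome 10, 127514251, gave -0.54 on replicate 4, against -0.28, -0.30 and -0.31 on the others. A total of 79 sets of array values was examined in this way, and chance alone marks some of so many at this level.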

How the results depend on the processing

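Over 75 named probes and all alternatives, 925 of 1023 repeats stayed on the same side of an adjusted p of 0.1, 68 lost the call and 30 gained one. No called value changed sign, while 53 values of 27 probes that were not called did. Hspb1 kept its direction in all 14 alternatives (log2 ratio -1.80 to -1.52, adjusted p 0.0017 to 0.226) and passed 0.05 in 6. Dnaja4 did so in all 14 (-1.41 to -0.99, adjusted p 0.00056 to 0.221) and passed 0.05 in 6. The 39 tested and 2 member probes past 0.05 became 10 and 0 with processed signals, 0 and 0 with normexp on all spots, and 0 and 0 with 1 probe per gene. With eBayes trend and robust they were 0 and 0, and 0 tested and 0 member probes passed 0.1. Tested probes past 0.05 numbered 153 with no background correction, 336 with median centring, 64 with no dye term and 180 with all 8 channels above background. With no filter they numbered 504, with 4 member probes. The 1402 tested and 7 member probes past 0.1 were 363 and 2 with no dye term, and the tested ones 787 with normexp on all spots and 910 with 1 probe per gene. The separate-channel fit treats the 8 channels as 8 samples, with a correlation of 0.45 between the 2 channels of a spot. It called 3658 tested and 20 member probes at 0.05, and 5498 and 25 at 0.1. Leaving out an array left 0 tested and 0 member probes at 0.05, and 0 to 221 tested and 0 to 2 member probes at 0.1. The 22 member probes with the same sign on all 4 arrays became 5 with median centring, and the share of all tested probes was not counted there. The cause of the changes under any of the alternatives was not tested. The main fit used ratios within arrays, each of which already sets 1 knockout mouse against 1 control mouse. No other pairing was possible because the replicate numbers name arrays. A slide term was not run, since there was 1 slide.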
